A study of Mus musculus with 12 samples.

Results

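The 730 regions described here lie at or near gene starts. In them H3K36ac, the acetylated form of lysine 36 of histone H3, was called in both genotypes, WT and Sirt7-/-. They were chosen by the measured calls. Overlapping or touching peaks of 6 lists were merged, and a merged region was kept if at least 2 of 3 Sirt7-/- samples and at least 1 of 3 WT samples had a peak in it and if any part of it lay within 3000 bp of a gene start (mm10). Of 4467 merged regions, 3871 lay at promoters, and the 730 made up 16.3% of all regions. Of the 730, 411 (56.3%) held their nearest gene start and 36 lay more than 1000 bp from it. The 730 are called shared promoters below. Each sample was immunoprecipitated chromatin of 50000 spermatogonia-enriched testis cells at postnatal day 5 (Pnd 5), a different mouse for each sample, on the 129S1/Sv background, with 3 WT and 3 Sirt7-/- samples numbered 2, 3 and 4 in each genotype. The knockout was constitutive, so every cell type of the testis lacked SIRT7, and the cells were enriched by plating rather than sorted, so somatic cells could remain. The question of the comparison was how far the mark extended at promoters that carried a call with and without SIRT7. Because the calls chose the regions and the widths belong to the same calls, the widths are given as a description with their spread over samples and no test.

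H3K36ac is placed by lysine acetyltransferases and is found mainly at the promoters of active genes, in the first part of the transcribed region. SIRT7 is a nuclear NAD+-dependent deacetylase of the sirtuin family, and H3K36ac is among its substrates. Lysine 36 can carry either an acetyl or methyl groups, and the methylated form is known from the bodies of transcribed genes. Spermatogonia are the mitotic germ cells of the testis, and those of the newborn testis include the stem cells of spermatogenesis.

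The lists differed in length. They held 2840, 2045 and 2591 peaks in Sirt7-/- samples 2, 3 and 4, and 906, 64 and 294 in WT samples 2, 3 and 4. The list of WT sample 3 was therefore short, and WT sample 2 supplied most of the WT calls. A missing call is not a missing mark, since the lists hold no coverage, and how many reads passed the filters is unknown here. A difference in the number of cells carrying the mark cannot be told apart from a difference in the mark per cell.

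The promoter sequences of 9 of the regions show what lies upstream of the start at members with calls in all 6 samples (Bud31 to Myl12a, and Pcbp1), at members with a large or a negative difference in width (Klf13, Pcbp1, Hnrnpab), and at the promoter of another nuclear sirtuin (Sirt1). Each is the 250 bases before the gene start, written 5′ to 3′ on the strand of the gene, from the RefSeq promoter table of GRCm38.p6, the assembly whose coordinates mm10 uses. Capitals mark exact matches, on either strand, to GGGCGG (the GC box of Sp and KLF factors), CCAAT (NFY), CCGGAAG (ETS factors), AAGATGGCG (YY1), CACGTG (E box), TGACGTCA (CREB and ATF), GCGCATGCG (NRF1), TATAAA (the core promoter box bound by TBP) or GTTGCC (RFX factors).
Bud31, chr5:145140126-145140375, plus strand: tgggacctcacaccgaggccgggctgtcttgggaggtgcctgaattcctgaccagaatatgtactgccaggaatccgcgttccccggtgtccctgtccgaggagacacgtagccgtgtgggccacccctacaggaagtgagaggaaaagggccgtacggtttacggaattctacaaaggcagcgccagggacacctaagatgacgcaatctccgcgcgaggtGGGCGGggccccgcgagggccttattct
Zfp335os, chr2:164911183-164911432, plus strand: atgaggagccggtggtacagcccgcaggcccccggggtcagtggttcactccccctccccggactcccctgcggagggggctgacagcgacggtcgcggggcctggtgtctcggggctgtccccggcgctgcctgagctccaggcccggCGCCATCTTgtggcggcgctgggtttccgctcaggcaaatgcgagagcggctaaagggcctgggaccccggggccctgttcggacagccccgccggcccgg
4933440N22Rik, chr6:117908206-117908455, minus strand: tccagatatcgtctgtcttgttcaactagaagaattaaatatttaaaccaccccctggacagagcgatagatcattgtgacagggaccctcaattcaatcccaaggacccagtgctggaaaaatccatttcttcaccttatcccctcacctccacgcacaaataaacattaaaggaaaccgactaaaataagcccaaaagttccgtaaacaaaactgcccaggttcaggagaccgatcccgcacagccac
Adnp, chr2:168207113-168207362, minus strand: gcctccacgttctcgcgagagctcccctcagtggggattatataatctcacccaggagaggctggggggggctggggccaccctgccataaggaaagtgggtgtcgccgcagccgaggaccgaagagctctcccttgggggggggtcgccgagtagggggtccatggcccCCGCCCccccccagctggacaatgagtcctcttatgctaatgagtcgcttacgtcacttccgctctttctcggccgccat
Myl12a, chr17:71002534-71002783, minus strand: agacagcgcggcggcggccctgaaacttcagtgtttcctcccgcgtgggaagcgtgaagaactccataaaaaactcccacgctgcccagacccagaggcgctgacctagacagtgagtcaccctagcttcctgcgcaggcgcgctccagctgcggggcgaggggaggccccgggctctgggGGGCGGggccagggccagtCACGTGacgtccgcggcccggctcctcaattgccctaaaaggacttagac
Pcbp1, chr6:86526190-86526439, minus strand: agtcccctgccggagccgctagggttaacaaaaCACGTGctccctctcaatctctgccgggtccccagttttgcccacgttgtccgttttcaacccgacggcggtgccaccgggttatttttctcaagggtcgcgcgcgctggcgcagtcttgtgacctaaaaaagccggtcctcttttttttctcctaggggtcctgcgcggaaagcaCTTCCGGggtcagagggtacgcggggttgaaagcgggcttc
Klf13, chr7:63938916-63939165, minus strand: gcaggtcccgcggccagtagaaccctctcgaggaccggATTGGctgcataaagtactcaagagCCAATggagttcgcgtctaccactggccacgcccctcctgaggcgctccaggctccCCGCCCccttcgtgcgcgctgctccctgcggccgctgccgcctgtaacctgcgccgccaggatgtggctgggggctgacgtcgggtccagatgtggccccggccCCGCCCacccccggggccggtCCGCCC
Hnrnpab, chr11:51606882-51607131, minus strand: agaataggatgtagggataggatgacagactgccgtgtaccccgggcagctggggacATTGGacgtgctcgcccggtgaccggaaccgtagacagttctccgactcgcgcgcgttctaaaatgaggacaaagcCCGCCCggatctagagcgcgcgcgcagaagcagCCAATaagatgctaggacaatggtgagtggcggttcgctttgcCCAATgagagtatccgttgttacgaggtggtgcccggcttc
Sirt1, chr10:63339036-63339285, minus strand: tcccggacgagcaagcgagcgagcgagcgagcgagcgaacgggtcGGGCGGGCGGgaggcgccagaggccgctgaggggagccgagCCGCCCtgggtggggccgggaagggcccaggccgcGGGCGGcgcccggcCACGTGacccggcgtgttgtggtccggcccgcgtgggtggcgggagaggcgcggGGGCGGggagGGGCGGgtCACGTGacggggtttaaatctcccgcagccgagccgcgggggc

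The calls did not always reach these bases. At Bud31, which encodes a splicing factor, 5 of the 6 samples covered all 250 printed bases and the call of WT 4, which began at chr5:145140165 within these bases and ended at chr5:145140416 beyond the start, covered 211 of them. The GC box at 28 bases before the start thus lay under every call. At Pcbp1, which encodes an RNA-binding protein of poly(C) stretches, the 3 Sirt7-/- calls covered all 250 bases, whereas the WT calls covered 0, 48 and 235 of them. At Klf13, a Krüppel-like transcription factor, Sirt7-/- samples 2 and 4 covered 250 bases and Sirt7-/- sample 3 and both WT calls covered 0. The order was turned at Hnrnpab, an hnRNP of the A/B group, where WT 2 covered 250 bases and WT 4 and the 3 Sirt7-/- calls covered 0. Adnp was covered over 250 bases in Sirt7-/- sample 3 only and Myl12a in Sirt7-/- sample 2 only, and at 4933440N22Rik all 6 calls lay downstream of the start and covered 0. At Zfp335os the YY1 match lay 101 bases before the start, and the calls covered 83, 109 and 61 bases in the Sirt7-/- samples and 250, 0 and 0 in WT.

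All 3 Sirt7-/- samples called 499 of the 730 regions, and 2 of the 3 called the other 231. In WT, 571 were called in 1 sample, 138 in 2 and 21 in all 3, and 20 regions were called in all 6 samples. WT 2 was the only WT sample with a call at 479 regions (65.6%), WT 4 at 82 and WT 3 at 10, and without WT 2 the same rule left 250 regions. The Sirt7-/- samples called 680, 632 and 647 of the 730, and the WT samples 635, 51 and 224. These were 23.9%, 31.0% and 25% of the Sirt7-/- lists and 70.1%, 79.7% and 76.2% of the WT lists, so that most peaks called in WT lay in these regions. Outside the rule, 1197 promoter regions had calls in at least 2 Sirt7-/- samples and none in WT, 147 had calls in 1 Sirt7-/- and at least 1 WT sample, and 99 were called in WT only.

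The values just inside and just outside the rule are given as a description. Members with 2 Sirt7-/- and 1 WT calls (202) had a median Sirt7-/- width of 562.5 bp and a median WT width of 352 bp. Regions with 1 Sirt7-/- and 1 WT call (142), which the rule left out, had 425.5 bp and 297.5 bp. Regions with 2 Sirt7-/- calls and none in WT (752) had a median of 478.8 bp. Members with 3 Sirt7-/- and 1 WT calls (369) had a median Sirt7-/- width of 645.3 bp, and regions with 3 Sirt7-/- calls and none in WT (445) one of 591.7 bp. At the same number of Sirt7-/- calls, the regions left out thus had narrower Sirt7-/- calls than the members. The member farthest from its gene start was that of Mef2a, a transcription factor, at 2961 bp, and the nearest region left out for its distance lay 3086 bp from the start of Gm46228.

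H3K36ac calls at the shared promoters were wider in all 3 Sirt7-/- samples than in any WT sample. The mean width was 744 bp, 662 bp and 735 bp in Sirt7-/- samples 2, 3 and 4, and 500 bp, 367 bp and 410.2 bp in WT samples 2, 3 and 4. The genotype means were 714 ± 45.2 bp and 426 ± 67.9 bp (SD, n = 3), a difference of 288 bp and a ratio of 1.68, and the groups did not overlap. An exact permutation test of groups this small cannot go below a two-sided p of 0.1, and none was computed on calls that had chosen the regions. The median widths were 658.5, 552.5 and 618 bp against 413, 273 and 314 bp. Calls of at least 500 bp made up 67.4%, 58.5% and 63.2% of the Sirt7-/- calls and 38.4%, 21.6% and 24.1% of the WT calls. Calls of at least 1000 bp were 23.5%, 16.1% and 22.7% against 6.14%, 1.96% and 2.23%, so wide calls were more frequent in each Sirt7-/- sample than in any WT sample. Over the whole lists the mean widths were 591, 555 and 589 bp in Sirt7-/- and 462, 368 and 389.6 bp in WT, and the number of peaks per list differed in the same direction as their width; its part in the widths was not tested.

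**Figure D1:**
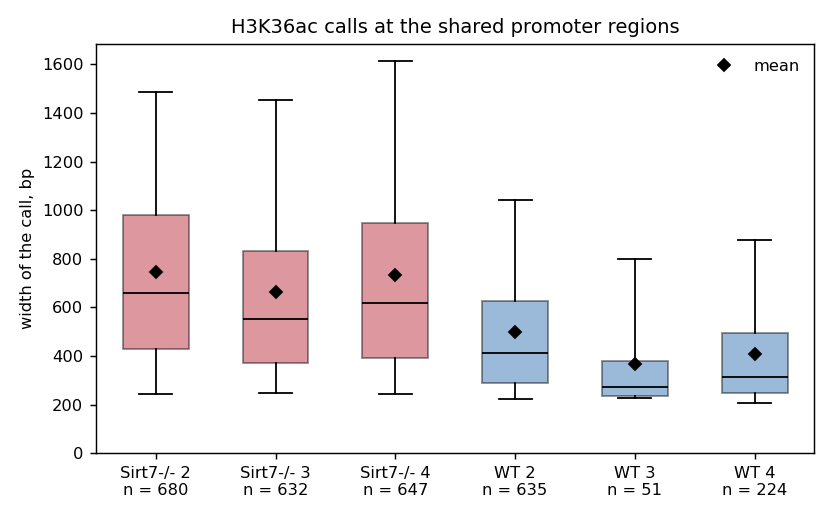
Width in bp of the H3K36ac calls at the 730 shared promoter regions, by sample (red, Sirt7-/-; blue, WT). Boxes span the quartiles with the median as a line, whiskers reach the 5th and 95th percentiles, diamonds are means and n is the number of regions called; the 3 Sirt7-/- means (662 to 744 bp) all lie above the 3 WT means (367 to 500 bp).

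The same direction was seen when the 2 genotypes were compared within a region. The mean Sirt7-/- width minus the mean WT width had a median of 173.5 bp over the 730 regions, with quartiles of 36 and 386.3 bp and a range from -905 to 2552 bp. The calls were wider in Sirt7-/- at 581 regions (79.6%) and wider in WT at 149. Over all 944 regions called in both genotypes, at promoters or not, 78.5% were wider in Sirt7-/-, so the shared promoters stood near the background of the lists. The 730 are part of these 944, and of the other 214 regions 74.8% were wider in Sirt7-/-. Every Sirt7-/- call was wider than every WT call at 366 regions (50.1%), against 54.4% of the 944, and every WT call was wider than every Sirt7-/- call at 53 (7.26%), against 11.2%. These shares depend on how many calls a region has, and the rule asked for at least 3. The Sirt7-/- mean was at least 2-fold the WT mean at 201 regions (27.5%), against 27.1% of the 944. The WT mean was at least 2-fold the Sirt7-/- mean at 11, against 16 of the 944.

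Among regions called in all 3 Sirt7-/- samples, the difference was larger where more WT samples had a call. The median difference was 175 bp at the 369 regions with 3 Sirt7-/- calls and 1 WT call, 253.8 bp at the 110 with 2 WT calls, and 327 bp at the 20 with 3 WT calls, all 20 of which were wider in Sirt7-/-. Regions called in 2 Sirt7-/- samples did not show this order, with 116.5 bp at the 202 with 1 WT call, 113.8 bp at the 28 with 2 and -4.33 bp at the 1 region with 3. The difference also depended on which WT sample supplied the call. Where WT 2 was the only WT sample the median difference was 151.7 bp and 74.9% of 479 regions were wider in Sirt7-/-, whereas with the WT width taken from WT 3 and WT 4 alone it was 270.3 bp and 91.6% of 251. When the regions were derived without WT 2, the median difference was 271 bp over 250 regions, and the genotype means were 745 ± 36.8 bp (n = 3) and 389 ± 31.2 bp (n = 2).

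Each pair of samples was also compared at the regions both had called. In the 9 pairs of a Sirt7-/- and a WT sample, the median difference ran from 105 bp (Sirt7-/- 3 against WT 2, 551 regions) to 319.5 bp (Sirt7-/- 4 against WT 3, 48 regions), and 66.4% to 95.8% of the regions were wider in the Sirt7-/- sample. The 3 pairs within Sirt7-/- differed by -45 to 66.5 bp and the 3 pairs within WT by -13 to 70 bp. No pair within a genotype reached the smallest of these signed medians between genotypes. Taken without sign, the median difference was 188 to 210 bp within Sirt7-/-, 95 to 173 bp within WT and 199 to 336 bp between genotypes. For single regions the ranges within Sirt7-/- and between genotypes thus overlapped. WT 2 was the WT sample nearest to Sirt7-/- in all 3 of its pairs.

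**Figure D2:**
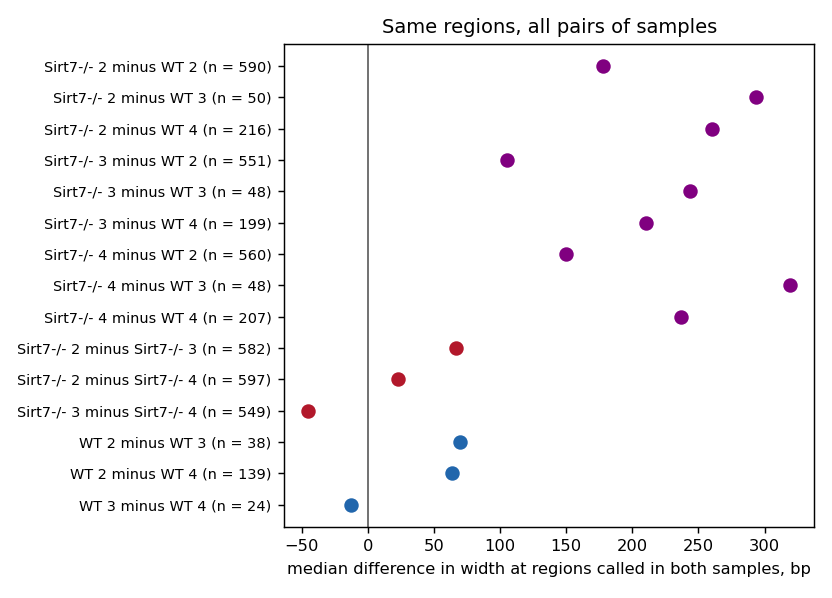
Median difference in width in bp (first sample minus second) at regions called in both samples, for all 15 pairs of samples (purple, Sirt7-/- minus WT; red, within Sirt7-/-; blue, within WT), with n regions in each. The 9 purple points lie between 105 and 319.5 bp, to the right of the 6 pairs within a genotype, which lie between -45 and 70 bp.

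The calls lay just downstream of the gene start in both genotypes. The start used is the outermost of each gene, so a call at a start inside the gene counts as downstream. The part of this in the distances was not tested. At the 475 regions with a single gene start within 3000 bp, the median midpoint of the calls was 367.5, 359.5 and 387.3 bp downstream in Sirt7-/- and 351.5, 368 and 351 bp downstream in WT, or 371 ± 14.3 and 357 ± 9.67 bp (SD, n = 3), with overlapping groups. The share of called regions that were covered was highest 325 or 350 bp downstream of the start in 5 samples. In WT 3, which called 29 of these regions, the same maximum was reached at several positions from 250 to 400 bp downstream. At that maximum the calls covered 67.0 ± 2.34% of the called regions in Sirt7-/- and 54.4 ± 3.25% in WT.

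The additional width in Sirt7-/- lay on both sides of the WT call. The median upstream edge was 73.5, 97 and 118.5 bp downstream of the start in Sirt7-/- and 127, 206 and 173.5 bp downstream in WT, and the median downstream edge was 679.5, 639 and 691.5 bp against 558, 558 and 540 bp. Neither edge overlapped between genotypes. At 250 bp upstream of the start, the calls covered 21.0 ± 2.69% of the called regions in Sirt7-/- and 9.67 ± 3.06% in WT. At the start itself the shares were 29.6 ± 3.72% and 15.0 ± 7.40%, and at 500 bp downstream 56.5 ± 1.24% and 37.2 ± 5.62% (SD, n = 3). Over all 730 regions, the joined WT calls lay inside the joined Sirt7-/- calls at 518 (71.0%) and the reverse held at 13. The joined Sirt7-/- calls reached a median of 137 bp farther upstream and 164 bp farther downstream, although more Sirt7-/- than WT calls were joined at most regions.

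**Figure D3:**
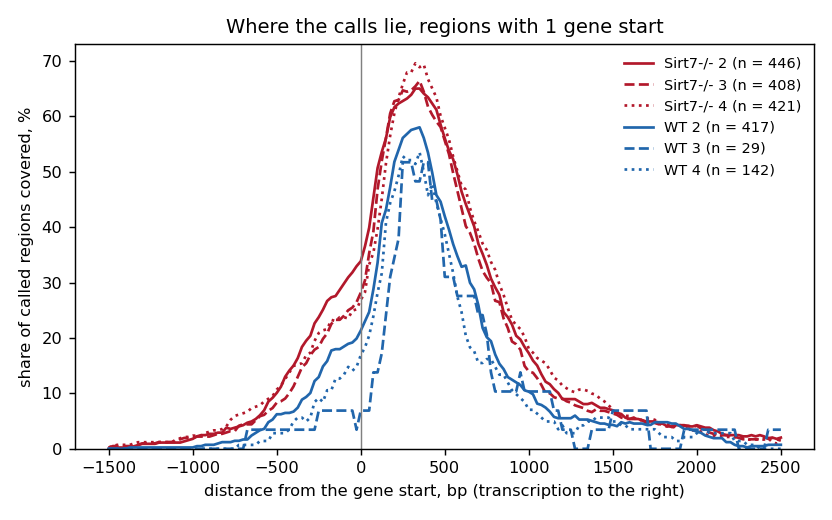
Share of called regions (in %) covered by a call at each distance in bp from the gene start, by sample, for shared promoter regions with 1 gene start (red, Sirt7-/-; blue, WT; n is the number of regions called). The curves reach their maximum 325 or 350 bp downstream of the start, except that of WT 3, which reaches it at several positions from 250 to 400 bp, and at the maximum the Sirt7-/- curves lie between 65.0% and 69.6% and the WT curves between 51.7% and 58.0%.

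The authors' fold over input, the ratio of ChIP to input signal in a call, did not separate the genotypes. The median fold at the shared promoters was 4.40, 5.01 and 4.32 in Sirt7-/- and 4.50, 4.73 and 5.01 in WT, or 4.58 ± 0.377 and 4.75 ± 0.255 (SD, n = 3), and the groups overlapped. Within a region the mean fold was higher in Sirt7-/- at 349 regions (47.8%) and higher in WT at 381. Over all 944 regions called in both genotypes it was higher in Sirt7-/- at 44.5%. In the 9 pairs of samples the median difference in fold ran from -0.618 to 0.536, with both signs. The fold is a mean over the call, so a wider call takes in more of the flanks. It is known only for peaks that entered their own list. The lowest −log10 p in a list, where a larger value marks a stronger peak, was 4.33, 4.54 and 4.39 in Sirt7-/-. In WT it was 4.88, 5.99 and 5.36, so the weakest listed peaks were stronger in every WT list. The part of this in the folds and widths was not tested.

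The authors' q is the p-value of a peak as adjusted by the peak caller for multiple testing within the sample, and a larger −log10 q marks a stronger call. In Sirt7-/- the median −log10 q of the calls was 2.92, 3.24 and 2.92, and their median rank by −log10 q lay 29.1%, 33.0% and 31.0% down the list. In WT the median −log10 q was 2.29, 1.93 and 2.12, and the rank lay 45.3%, 53.1% and 48.1% down the list. The median −log10 p of the same calls was 6.81, 7.26 and 6.81 in Sirt7-/- and 6.58, 7.14 and 6.89 in WT. These −log10 p values overlapped between genotypes. Since q is adjusted within each sample, the −log10 q values are not read as a difference in strength between genotypes. The shared promoters made up most of each WT list, so their median rank there lies near the middle by construction, and the ranks are not compared between genotypes. The Sirt7-/- calls at the 1197 promoters with no WT call ranked 48.6%, 53.9% and 47.9% down the same lists, and their median widths were 516, 442.5 and 479.5 bp. In each Sirt7-/- sample the promoters also called in WT thus ranked higher and had wider calls than those without a WT call.

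The 20 regions called in all 6 samples are the part of the data with a width from every sample, and the Sirt7-/- mean was higher at all 20. At 11 of them (55%) every Sirt7-/- call was wider than every WT call, against 54.4% of the 944 regions called in both genotypes. These shares depend on how many calls a region has. The 10 with the best mean rank of −log10 q are given first.

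Sfpq encodes a splicing factor of paraspeckles, the nuclear bodies built on the Neat1 RNA. Its region, chr4:127021322-127022289, lay 606 bp from the start, and the calls were 910, 798 and 752 bp wide in Sirt7-/- and 842, 319 and 252 bp in WT. WT 2 lay within the Sirt7-/- range and the other WT samples below it. Tardbp encodes TDP-43, an RNA-binding protein of splicing, and its calls were 1004, 668 and 483 bp in Sirt7-/- and 712, 629 and 378 bp in WT, with overlap. At Bud31 (chr5:145139720-145140819, shared with the start of Pdap1) they were 715, 524 and 767 bp in Sirt7-/- against 516, 325 and 252 bp in WT, so that every Sirt7-/- call was wider.

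Adnp encodes a zinc finger and homeodomain protein of a chromatin remodelling complex. Its region, chr2:168205701-168207408, held calls of 880, 1145 and 1328 bp in Sirt7-/- and of 298, 242 and 247 bp in WT. The groups lay far apart, and the means differed by 855 bp. Ep300 encodes p300, a lysine acetyltransferase, and its calls were 633, 464 and 1843 bp in Sirt7-/- and 367, 808 and 292 bp in WT. There Sirt7-/- 4 stood high and WT 3 lay above 2 of the Sirt7-/- samples.

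Gpbp1 encodes a GC-rich promoter-binding protein, with calls of 668, 1677 and 752 bp in Sirt7-/- and 912, 592 and 439 bp in WT. Myl12a encodes a regulatory light chain of myosin, with 1441, 552 and 818 bp in Sirt7-/- and 762, 371 and 452 bp in WT. Both overlapped between genotypes through WT 2. The region of the lncRNA Zfp335os also holds the start of Zfp335, a zinc finger transcription factor that the lncRNA faces, and its calls were 394, 946 and 836 bp against 615, 390 and 318 bp.

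The smallest difference in means of these 10 was 122 bp at 4933440N22Rik, with 1354, 1249 and 697 bp in Sirt7-/- and 755, 1035 and 1144 bp in WT. The region named by Gm41298 lay 2709 bp from that start and inside the gene Ywhaz, which encodes a 14-3-3 protein. Its calls were 1527, 1588 and 1677 bp in Sirt7-/- and 1163, 288 and 1470 bp in WT, and every Sirt7-/- call was wider than every WT call. The other members called in all 6 samples included Matr3, encoding the RNA-binding matrin 3, with 597, 860 and 691 bp in Sirt7-/- against 439, 592 and 392 bp in WT, and Cul1, the scaffold of SCF ubiquitin ligases, with 918, 840 and 1079 bp against 752, 799 and 719 bp. Neither overlapped between genotypes. The difference in means at Cul1 was 189 bp, within the range over which its Sirt7-/- calls spread.

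**Figure D4:**
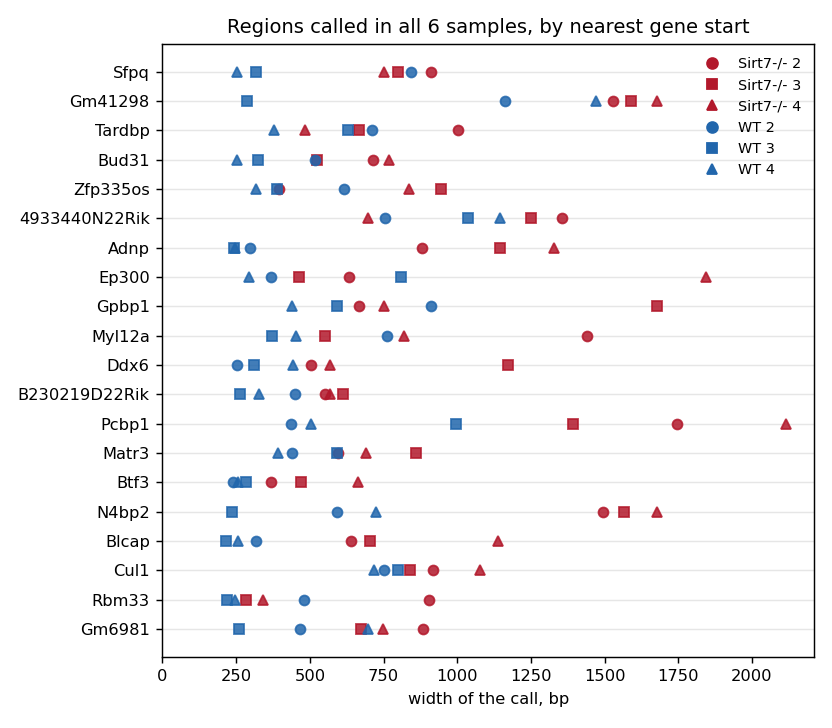
Width in bp of every call at the 20 regions called in all 6 samples, named by the nearest gene start and ordered from top to bottom by mean rank of −log10 q (red, Sirt7-/-; blue, WT; circle, square and triangle for samples 2, 3 and 4). Red symbols lie to the right of all blue symbols at 11 regions (55%), among them Adnp, Pcbp1 and N4bp2. Red symbols overlap with blue ones at the other 9. Over all 944 regions called in both genotypes, 54.4% had every Sirt7-/- call wider than every WT call.

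The largest differences in width were taken among the 130 regions with 3 Sirt7-/- and at least 2 WT calls. The region at chr17:34119702-34122727, between the starts of H2-DMa, which encodes a chain of the class II peptide exchange factor, and Brd2, a bromodomain protein that binds acetylated histones, had calls of 2873, 3011 and 2726 bp in Sirt7-/- and of 376 and 261 bp in WT 2 and WT 4. The difference in means was 2552 bp, the largest of all members. Kmt2e encodes a SET domain protein, with calls of 2042, 2160 and 1884 bp against 678 and 213 bp in WT 2 and WT 4. In both regions the Sirt7-/- calls were more than 1000 bp wider than any WT call.

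Klf13 followed with 2383, 1566 and 2763 bp in Sirt7-/- and 321 and 1347 bp in WT 2 and WT 4, and here the lowest Sirt7-/- call stood close above the higher WT call. Zc3h4 encodes a zinc finger protein that restrains noncoding transcription, with 1912, 1976 and 1948 bp against 893 and 506 bp. At Pcbp1 the calls were 1745, 1392 and 2117 bp in Sirt7-/- and 437, 997 and 505 bp in WT. At all 3 genes every Sirt7-/- call was the wider. Among members with a call in 1 WT sample, the widest calls included Mex3c, an RNA-binding ubiquitin ligase, with 2155, 2362 and 2014 bp against 235 bp in WT 2, and Hivep2, a zinc finger transcription factor, with 2176, 2332 and 2729 bp against 816 bp in WT 4. These were picked after their values were seen, for their width.

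At 149 regions the difference had the opposite sign, with a median of -95 bp. WT 2 was the only WT sample with a call at 120 of them. Their Sirt7-/- calls had a median width of 514 bp and their WT calls one of 621 bp, against 660.0 and 348 bp at the 581 other regions. Hnrnpab had the most negative value among regions with 3 Sirt7-/- and at least 2 WT calls, with 693, 342 and 555 bp in Sirt7-/- and 1143 and 439 bp in WT 2 and WT 4. The groups overlapped, and WT 4 lay within the Sirt7-/- range. Rheb, the small GTPase that activates mTORC1, had calls of 344, 468 and 477 bp against 828 and 235 bp in WT 2 and WT 3, which lay on either side of them.

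Pcnx, a multi-pass membrane protein, had 226, 680 and 609 bp in Sirt7-/- and 674 and 621 bp in WT 2 and WT 4. The lncRNA A630072M18Rik had 247, 308 and 383 bp against 594 and 264 bp. At Mirlet7i the calls were 994, 1063 and 352 bp in Sirt7-/- and 836 and 908 bp in WT 2 and WT 4, so 2 Sirt7-/- samples lay above both WT samples and the other below. The WT mean was at least 2-fold the Sirt7-/- mean at 11 regions, the most negative of which was Atp2b1, a plasma membrane calcium pump, with 504, 877 and 1035 bp against 1710 bp in WT 2.

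Among the gene lists of more than 50 genes, those of splicing and of translation initiation had the highest shares of members. Of 21468 protein-coding genes with a known strand, 828 (3.86%) had a shared promoter region within 3000 bp of their start, and this share is the background for the gene lists below. Among SR proteins, hnRNPs and snRNP proteins, the factors of pre-mRNA splicing and packaging, 22 of 88 genes (25%) had such a region. Among translation initiation factors the count was 11 of 56 (19.6%), among cytosolic ribosomal proteins 11 of 86 and among aminoacyl-tRNA synthetases 3 of 19. The lists were not tested. The 24 regions of the splicing list had a median difference of 119.7 bp, with 20 wider in Sirt7-/-, the 11 regions of the initiation factors 163 bp with 9 wider, and the 11 regions of the ribosomal proteins 29.7 bp with 7 wider, against 173.5 bp over all 730, of which 79.6% were wider. The 3 medians lay below that of all members, and that of the ribosomal proteins was the lowest of them. The 1197 promoters with no WT call held similar numbers of splicing and initiation genes, 24 of 88 and 11 of 56. They held 16 of the 86 ribosomal protein genes and 1 of the 19 synthetases. The counts for splicing and initiation were thus not particular to the shared promoters.

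**Figure D5:**
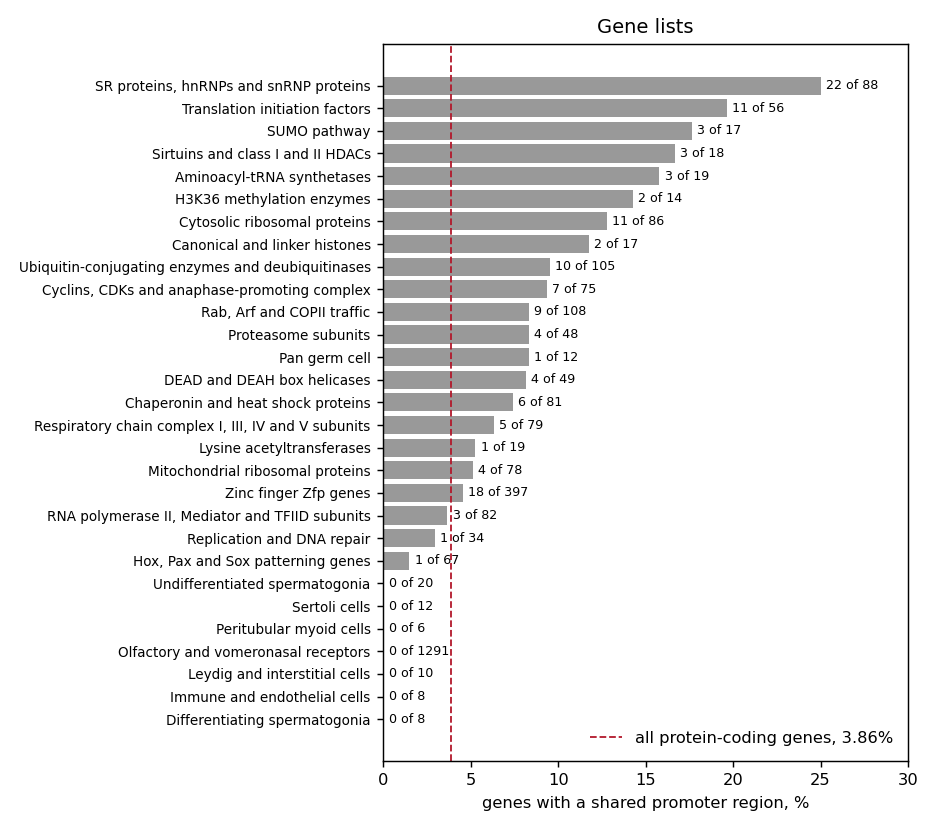
Share (in %) of the genes of each list with a shared promoter region within 3000 bp of the start, with the count of genes beside each bar. The dashed line marks all protein-coding genes at 3.86%; the splicing list (22 of 88) lies farthest to the right and the lists of spermatogonial, Leydig, Sertoli and olfactory genes lie at 0.

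Hnrnpl, a splicing regulator, had 2 of these regions. The first lay 2389 bp from its start and had calls of 297, 276 and 302 bp in Sirt7-/- and 275 and 230 bp in WT 2 and WT 3. The second lay over its start and had 796, 290 and 773 bp in Sirt7-/- and 274 bp in WT 2. In each, every Sirt7-/- call was the wider, although the narrowest stood close above the WT call.

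The best-ranked initiation factor was Eif5, which triggers GTP hydrolysis at the start codon, with calls of 1564, 1150 and 1582 bp in Sirt7-/- and 661 and 910 bp in WT 2 and WT 4. Eif3e, a subunit of the eIF3 complex, had 241 and 259 bp in Sirt7-/- samples 3 and 4 and 365 bp in WT 2, the reverse order. Eif4e, which binds the mRNA cap, was among the genes with a 4-fold or larger difference, with 1193, 1357 and 1904 bp against 290 bp in WT 2. Of the ribosomal proteins, Rpl35a had 571, 624 and 706 bp against 698 bp in WT 2, Rps3a1 had 246 and 214 bp in Sirt7-/- samples 2 and 4 against 413 bp, and Rps23 had 521, 573 and 432 bp against 479 bp. None of these 3 was wider in every Sirt7-/- sample.

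The aminoacyl-tRNA synthetases Dars, Eprs and Yars load aspartate, glutamate with proline, and tyrosine onto their tRNAs, and each was called in 3 Sirt7-/- samples and WT 2. Dars had 599, 365 and 542 bp against 331 bp, Eprs 881, 296 and 613 bp against 275 bp, and Yars 1453, 1386 and 1199 bp against 897 bp. All 3 were wider in every Sirt7-/- sample. Of the DEAD and DEAH box helicases, 4 of 49 had a shared region, led by Dhx15, a splicing helicase, with 381, 446 and 430 bp in Sirt7-/- and 330 and 259 bp in WT 2 and WT 4.

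Genes that write, erase or carry histone marks were present in small numbers. Of 18 sirtuins and class I and II HDACs, 3 had a shared region. Hdac2, a class I deacetylase, had calls of 410, 807 and 837 bp in Sirt7-/- and 873 and 270 bp in WT 2 and WT 3. Sirt1, a nuclear sirtuin, had 307 and 788 bp in Sirt7-/- samples 3 and 4 and 617 bp in WT 2. Both overlapped between genotypes, and their mean differences were 113.2 and -69.5 bp.

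The region of Sirt4, a mitochondrial sirtuin, lay closest to the start of an snRNA gene, Gm24265, and its order was turned. Its calls were 233 and 234 bp in Sirt7-/- samples 2 and 3 and 885 and 877 bp in WT 2 and WT 4. It was among the 11 regions at which the WT mean was at least 2-fold the Sirt7-/- mean, and the only region of those 11 with 2 WT calls.

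Of 19 lysine acetyltransferases, only Ep300, described above, had a shared region. Of 14 enzymes of H3K36 methylation, Ash1l, a methyltransferase of this lysine, had calls of 1208, 445 and 1091 bp against 731 bp in WT 2. Kdm2a, a demethylase of this lysine, had 1660 and 353 bp in Sirt7-/- samples 2 and 3 against 304 bp in WT 2, in a region 565 bp from the start of the gene 9430078G10Rik. Both had larger means in Sirt7-/-, with overlap at Ash1l. Of the histone genes matched by symbol, H3f3a, which encodes the variant H3.3, had 1063, 1648 and 1291 bp in Sirt7-/- and 360 and 254 bp in WT 2 and WT 4. H1f0, a linker histone, had 942, 294 and 365 bp against 215 and 312 bp, so that H3f3a was separated between genotypes and H1f0 was not.

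The SUMO pathway, which attaches a small ubiquitin-like protein to its targets, had 3 of 17 genes with a shared region. Senp6, a SUMO protease, had 657 and 734 bp in Sirt7-/- samples 2 and 3 and 310 bp in WT 4. Sumo2 had 492, 659 and 468 bp against 464 and 506 bp in WT 2 and WT 4, with overlap. Ubiquitin-conjugating enzymes and deubiquitinases had 10 of 105, led by Ube2d3 with 1040, 1084 and 995 bp against 623 and 828 bp, where the groups did not overlap.

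The other lists lay nearer to the background. Proteasome subunits had 4 of 48, and Psmd1, of the regulatory particle, had 505 and 776 bp in Sirt7-/- samples 2 and 4 against 241 bp in WT 2. Respiratory chain subunits had 5 of 79, and Ndufa4 had 516, 265 and 480 bp against 244 bp in WT 3. Chaperonins and heat shock proteins had 6 of 81, of which 3 were wider in WT. Among them Hspa9, the mitochondrial HSP70, had 877, 668 and 747 bp against 606 and 496 bp, and Hsp90aa1 had 252, 293 and 1028 bp against 837 bp in WT 4.

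Genes named for cyclins, cyclin-dependent kinases and the anaphase-promoting complex had 7 of 75, led by Cdk12, a kinase of RNA polymerase II, with 981, 541 and 1030 bp against 745 bp in WT 2. Genes of Rab, Arf and COPII traffic had 9 of 108, led by the endosomal GTPase Rab5a with 1213, 450 and 1023 bp against 548 bp in WT 2. Mitochondrial ribosomal proteins had 4 of 78, among them Mrpl11 with 449 and 410 bp in Sirt7-/- samples 2 and 3 against 309 bp in WT 2, and Mrps7 with 909, 680 and 421 bp against 374 bp in WT 2. Cdk12 and Rab5a overlapped between genotypes. RNA polymerase II, Mediator and TFIID genes had 3 of 82, led by the TFII-I family member Gtf2ird2 with 213 and 277 bp in Sirt7-/- samples 2 and 3 against 340 bp in WT 2. Genes with a Zfp symbol had 18 of 397, led by Zfp868 with 299 and 287 bp in Sirt7-/- samples 3 and 4 against 262 bp in WT 2. Of 34 replication and repair genes, 1 had a shared region, Mre11a, a nuclease of double-strand break repair, with 275 and 617 bp against 202 bp in WT 4.

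Genes that define the cell types of the testis were looked up in lists that are short. At the background of 3.86% each would hold fewer than 1 member gene, so nothing is read from their counts. None of 20 genes of undifferentiated spermatogonia had a shared region, although 6 had a call in at least 1 Sirt7-/- sample, and none had a WT call. The counts were 0 of 8 for differentiating spermatogonia, 0 of 12 for Sertoli cells, 0 of 10 for Leydig and interstitial cells, 0 of 6 for peritubular myoid cells and 0 of 8 for immune and endothelial cells. Of 12 genes of germ cells in general, Dmrt1, a transcription factor of germ and Sertoli cells, had 904 and 264 bp in Sirt7-/- samples 2 and 4 and 916 bp in WT 2. The label of the cells could therefore not be checked from these regions. None of 1291 olfactory and vomeronasal receptor genes had a shared region, and 1 of 67 Hox, Pax and Sox genes did, Sox12, with 1106, 616 and 1159 bp against 1221 bp in WT 2.

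A protein-coding gene start lay within 3000 bp of 703 of the 730 regions (96.3%, exact 95% binomial interval 94.7% to 97.5%, counting error only), against 96.9% of the 1197 promoters with no WT call. The other 27 were named by noncoding genes. Among these were 2 neighbouring nuclear lncRNAs, Malat1, a component of nuclear speckles, with 1138, 1066 and 954 bp in Sirt7-/- and 460 bp in WT 2, and Neat1, the scaffold of paraspeckles, with 252 and 3231 bp in Sirt7-/- samples 2 and 4 and 352 bp in WT 2. The call of 3231 bp was the widest at any shared promoter. Chaserr, a lncRNA next to Chd2, had 816, 504 and 1496 bp in Sirt7-/- and 325 and 419 bp in WT 2 and WT 4, with every Sirt7-/- call the wider. These lncRNAs were named after their values were seen.

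The starts of 16 miRNA genes lay within 3000 bp of a shared region, and 15 of them had a mature sequence in the RefSeq table. Mirlet7i was the nearest start of its own region, chr10:122985434-122986627, which spans the precursor on the minus strand. Its mature products are shown because this is the member of the let-7 family, known for repressing stem cell genes, among the shared promoters, with the seed (bases 2 to 8) in capitals. The 5p product lies at chr10:122985698-122985719 and the 3p product at chr10:122985642-122985663 (GRCm38.p6, minus strand).
mmu-let-7i-5p: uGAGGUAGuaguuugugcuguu
mmu-let-7i-3p: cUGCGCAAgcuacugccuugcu

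A single gene start lay within 3000 bp of 475 regions, and 255 had 2 or more. A divergent pair of starts, on opposite strands and at most 1000 bp apart, lay at 69 regions (9.45%, exact 95% binomial interval 7.43% to 11.8%), against 8.35% of the 1197 promoters with no WT call. At the divergent pairs, calls spanned both starts in 51.6%, 36.1% and 45.2% of those called in Sirt7-/-, and in 37.5% of 56 in WT 2, 0 of 9 in WT 3 and 0 of 20 in WT 4. The median difference in width was 194 bp at regions with 2 or more starts and 164.8 bp at those with a single start. No shared region lay on the X chromosome, where 25 of the 3871 promoter regions of any kind lay.

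The shared promoters were rich in CpG. Of the 667 protein-coding genes nearest to them, 553 were found in the RefSeq promoter table, which gives the 250 bases before and the 50 after the start. The ratio of observed to expected CpG had a median of 0.903 in these windows, against 0.867 in 873 promoters with Sirt7-/- calls alone, 0.577 in all 17492 protein-coding promoters of the table and 0.439 in the 14030 with no call in any sample. A ratio of at least 0.6 was reached by 93.5%, 89.3%, 48.4% and 39.0% of these sets. The median G and C content was 67.0% in the shared promoters, 65.3% in those without a WT call and 56.3% over the table. The calls of both genotypes thus lay at CpG-rich promoters, and those shared with WT lay slightly above those called in Sirt7-/- alone.

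The motifs shown above were counted in the same windows of 300 bases. The GC box was found in 75.9% of the shared promoters and in 46.3% of all protein-coding promoters, and the YY1 letters in 6.87% and 1.92%. The ETS letters were found in 17.0% and 11.9%, the CREB and ATF letters in 6.33% and 2.33% and the E box in 12.7% and 7.91%. In the other direction, TATAAA was found in 4.52% against 13.3% and CCAAT in 31.6% against 39.2%. The NRF1 letters were found in 3.80% against 2.41% and GTTGCC in 12.3% against 12.8%. In promoters called in Sirt7-/- alone, the shares were 73.1% for the GC box, 4.12% for YY1, 21.2% for ETS, 6.41% for NRF1 and 6.30% for TATAAA. The windows of the shared promoters also held more G and C than those of the table, and the part of this in the shares was not tested. A match describes the letters of the window, not a bound site.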

How the data were processed

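H3K36ac ChIP-seq peak lists of 3 WT and 3 Sirt7-/- samples were used. The matching inputs entered through the authors' peak calling. For trimming, alignment to mm10 and filtering at a mapping quality of 30 the authors used Trim Galore 0.6.6, then Bowtie2 2.4.4.1, then SAMtools 1.19.2. MACS2 2.2.5 was run by them on every ChIP sample with the input of that sample as control (broad mode, cutoff 0.1), without pooling replicates or applying a spike-in factor. A spike-in panel had been added to each sample, and the paper left the factor out because it found similar barcode counts across samples. The deposited lists give positions, the authors' fold over input (a ratio), the −log10 p and −log10 q that the authors' caller gave, and the deposited score, a whole-number form of −log10 q that was not used. The number of filtered reads behind a call is unknown here, and with it the precision of the call.

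Gene starts, 1 per gene, were those of RefSeq on GRCm38.p6. Strand, known for 45274 of 49943 genes, came from the RefSeq promoter table or, by symbol, from GENCODE vM39. The width of a call is the summed length of the peaks of a sample in a region, which was more than 1 peak in 3 cases. The members and the gene lists were chosen with earlier results of these data known. The genes named are the 10 regions called in all 6 samples with the best mean rank of −log10 q, the 5 largest and 5 smallest width differences among regions called in 3 Sirt7-/- and at least 2 WT samples, all members of the germ cell, sirtuin and HDAC, acetyltransferase, H3K36 methylation and SUMO lists, and the best-ranked of each other list by mean rank over the samples with a call. Others named are examples picked after their values were seen, among them further regions called in all 6 samples. An item that this rule would name is not reported here. A region takes the name of its nearest gene start. Calculations ran in Python 3.11.15 with SciPy 1.17.1, NumPy 2.4.6 and pandas 2.3.3, and plots were drawn with matplotlib 3.10.9. The code of the rule was run on 1000 simulated regions of known membership, and 100% were assigned correctly. These regions lay far apart with a single gene start each, so the run checked the code only. A sequence under the calls could be read for promoter windows only, since an mm10 genome was not used here.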

Additional observations from a re-analysis of the deposited data

How the results depend on the processing

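Every setting kept wider calls in Sirt7-/-: the difference in mean width was 247 to 356 bp over 17 alternatives, with 258 to 356 bp when each sample was left out in turn. All settings reused the edges of the deposited calls. They therefore do not show how the widths depend on the threshold at which the calls were made. The median difference within regions was 164 to 271 bp with a sample left out, the highest value without WT 2. The share of regions wider in Sirt7-/- was 77.2% to 91.6% with a sample left out and 86.8% where at least 2 WT calls were required. The number of regions followed the stringency of the calls. It was 374 at a −log10 q of at least 2, 414 at a −log10 p of at least 6, 13 with the 64 best peaks of each sample, 159 with at least 2 WT calls, and 250 to 720 with a sample left out, the lowest without WT 2. The median midpoint was 339 bp in Sirt7-/- and 338 bp in WT with a window of 1000 bp, 326 bp in WT at a −log10 q of at least 2, and 367 to 386 bp and 351 to 380 bp with a sample left out. A protein-coding start lay at 94.3% of the regions with at least 2 WT calls. Of 2 alternatives chosen after seeing the data, the 294 best peaks of each sample without WT 3 gave 103 regions, 88.3% of them wider in Sirt7-/-, and the several starts per gene of the promoter table gave 769 regions. The causes of these changes were not tested beyond the fewer peaks or samples that a setting leaves.

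Whether the replicate numbers pair the samples could not be decided, since only 20 regions were called in all 6. Over these, the deviations of same-numbered samples correlated at 0.279, -0.0750 and -0.146. Those of the other pairs of a Sirt7-/- and a WT sample correlated at -0.227 to 0.300. With the replicate block, the difference in mean width was 314 bp and the median difference within regions 219 bp, in the same direction. Groups of 3 cannot show an outlier, and without read coverage the lists do not show the mark where no call was made.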
